A study of Homo sapiens with 6 samples.

Results

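The pro-survival branch of the BCL2 family was examined in the established human colorectal adenocarcinoma line HT29 after 24 h of exposure to YM155, or to DMSO as the solvent control. The 5 genes were taken by name, as BCL2, BCL2L1, BCL2L2, MCL1 and BCL2A1, and all 5 were among the 26255 genes listed in each library. YM155 is a compound known for lowering expression of survivin, the product of BIRC5. Each treatment had 3 libraries of messenger RNA, and the YM155 libraries carry the spelling YM115 in their titles. The dose of YM155 is not given in the sources used here. Whether the replicates came from separate cultures is not stated, so the spread behind each p-value is that of these libraries and may be technical.

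Pro-survival BCL2 proteins sit on the outer mitochondrial membrane and hold a groove that captures the BH3 helix of their death-promoting relatives. While they hold BAX and BAK in check, cytochrome c stays in the mitochondrion and the caspase cascade is not started. BH3-only proteins, induced or activated by stress, occupy the groove and release BAX and BAK. The members differ in which BH3 helices they bind and in how long they last: MCL1 protein is turned over rapidly by the proteasome, whereas BCL-XL, the long product of BCL2L1, is stable and is a main survival factor of colorectal cancer cells. The deposited values are one per gene, so BCL-XL cannot be told apart from the short product BCL-XS, nor the long from the short forms of MCL1, and protein was not measured.

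Levels were given as FPKM, the number of fragments corrected for transcript length and for library size, so levels can be set side by side between genes, while a difference between libraries also depends on how the libraries are scaled. In the DMSO libraries MCL1 and BCL2L1 stood far above the rest, BCL2L2 was well below both, and BCL2 and BCL2A1 were under 1 FPKM. With YM155 BCL2L1 rose 2.31-fold and overtook MCL1, which was 1.34-fold higher. The BCL2L1 level may include reads of ABALON, a gene that overlaps it on the opposite strand and rose too. The BCL2L2 gene doubled, but a read-through transcript that shares 19.4% of its exonic bases fell. The sum of both did not differ between the groups beyond their spread. BCL2 stayed under 1 FPKM and was lower with YM155, and BCL2A1 was at or near 0 in all 6 libraries. Of the 3 members abundant enough to be tested, all 3 rose, where 43.6% of all tested genes rose, but the call of MCL1 ended under 4 of the 5 other scalings tried.

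The DNA upstream of the start is shown for BCL2L1, the member with the largest rise, and for BCL2A1, the only member whose window held a motif match. RefSeq promoter windows (build GRCh38.p14) were matched by symbol for 3 of the 5 members, BCL2, BCL2L1 (with 2 starts) and BCL2A1, and not for MCL1 and BCL2L2. The 250 bases before the first start of BCL2L1 are at chr20:31723964-31724213 and those before BCL2A1 at chr15:79971197-79971446, both on the minus strand. They are shown 5′ to 3′ along the gene, with capitals marking matches to the motifs searched.
BCL2L1: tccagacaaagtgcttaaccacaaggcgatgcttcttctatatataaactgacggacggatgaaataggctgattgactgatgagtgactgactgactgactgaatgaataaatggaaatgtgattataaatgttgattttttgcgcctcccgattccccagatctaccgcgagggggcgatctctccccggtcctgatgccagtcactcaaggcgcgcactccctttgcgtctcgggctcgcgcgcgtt
BCL2A1: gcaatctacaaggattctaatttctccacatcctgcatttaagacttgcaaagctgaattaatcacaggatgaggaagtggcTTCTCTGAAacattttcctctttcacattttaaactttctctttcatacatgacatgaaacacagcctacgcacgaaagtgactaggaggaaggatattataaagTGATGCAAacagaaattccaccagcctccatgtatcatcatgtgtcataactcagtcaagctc
The BCL2L1 window shown is 50.0% G and C and holds 17 CpG dinucleotides, and the window at its other start 60.4% and 12, against 38.8% and 2 in the BCL2A1 window, while the median over 35116 promoter windows of the same length was 58.0% and 11. The BCL2 window, of a gene under 1 FPKM, is 70.0% G and C with 24 CpG dinucleotides, so base composition did not follow the level among these 3 members. Both strands were searched for an ATF4-C/EBP composite (TGATGNAA), a STAT site (TTCNNNGAA), an antioxidant response element (TGACNNNGC), an ETS site (CCGGAAGT), an SP1 site (GGGCGG), a CREB site (TGACGTCA), an AP-1 site (TGANTCA) and an NF-kB site. The BCL2A1 window held TGATGCAA, an ATF4-C/EBP composite match found in 3.14% of all windows, and TTCTCTGAA, a STAT match found in 6.57%. These matches do not overlap. Neither BCL2L1 window nor the BCL2 window held any of the 8 motifs, which says only that these letters are not in these windows.

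The YM155 and DMSO libraries differed widely. A gene was tested where 3 or more libraries reached 1 FPKM, and called where the Benjamini-Hochberg adjusted p of limma was under 0.05. Of 12035 tested genes 5251 rose (43.6%) and 4940 fell (41.0%), so that 84.7% passed in either direction. After upper-quartile scaling the split was 3767 higher and 6584 lower, since that scaling shifted the median change over all genes by -0.31 in log2. FPKM summed to between 538478 and 563296 in the DMSO libraries and between 678699 and 696067 in the YM155 libraries. The files give no read totals. Instead, ratios to DMSO replicate 1 were taken for 2122 genes above 0 but under 1 FPKM in every library. Their most common value was 0.997 and 1.11 in the other DMSO libraries and 1.52 to 1.78 in the YM155 libraries. In the YM155 libraries 67 to 90 genes lay near that value. If this ratio is the relative worth of 1 read, low levels were measured with fewer reads after YM155, which was not tested. FPKM are relative to all RNA of a library, and in bulk samples fewer cells and less RNA per cell cannot be told apart. Of 9 colon epithelial markers 8 were tested, of which 5 rose and 2 fell, and CDX1 was at most 0.245 FPKM in any library. KRT20 rose 6.71-fold, KRT18 1.76-fold, KRT8 1.65-fold, CDH1 1.63-fold and EPCAM 1.29-fold, the last call ending under 4 of the 5 other scalings. CDX2, which passed the filter through the DMSO libraries alone, fell 3.81-fold and VIL1 1.73-fold. LGALS4, at 1365 ± 45.3 and 1401 ± 120.2 FPKM (SD, n = 3), was not called as deposited. It was called lower under 4 of the 5 other scalings, with a log2 fold change of -0.31 after upper-quartile scaling. All 7 stromal and endothelial markers stayed under 1 FPKM. The leukocyte list summed to 5.40 to 7.09 FPKM with DMSO and to 83.9 to 93.01 FPKM with YM155. CD68, which is also a lysosomal membrane protein, went from 4.85 ± 0.921 to 82.9 ± 4.51 FPKM (SD, n = 3), and CD79A, which passed the filter through the YM155 libraries alone, from 0.399 ± 0.0154 to 4.85 ± 0.729 FPKM. The part of these markers in the results on the members was not tested. The leukocyte-defining gene PTPRC was at most 0.0172 FPKM in every library.

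BCL2L1, whose long product BCL-XL guards the outer mitochondrial membrane, was at 78.1, 84.99 and 80.05 FPKM in DMSO replicates 1 to 3 and at 182, 194 and 185 FPKM in YM155 replicates 1 to 3. The groups did not overlap, as for 44.4% of tested genes with every YM155 library above every DMSO library, and each YM155 library held more than double the level of each DMSO library. The mean went from 81.05 ± 3.54 to 187 ± 6.27 FPKM (SD, n = 3), with a log2 fold change of 1.20 (SE 0.05, adjusted p = 2.8e-08 by limma) on the log2(FPKM + 1) scale. For scarce transcripts that scale gives too small a change. The change of BCL2L1 stood above 88.2% of all tested genes, as number 1421 of the rises in order of size. BCL2L1 lies in the most abundant decile of tested genes, whose median log2 fold change was 0.31, and exceeded that median by 0.89. Counted from the least abundant, deciles 1, 2 and 3 had medians of -0.52, -0.39 and -0.25, so scarce tested genes tended to fall. Falls of scarce genes below are set against all tested genes and not against their decile. Its rise kept its direction and its call under all 5 other scalings tried, with a log2 fold change of 0.75 after quantile normalization as the lowest.

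A non-coding gene, ABALON, overlaps BCL2L1 on the opposite strand, over 43.0% of the annotated exonic bases of BCL2L1 in GENCODE release 29. ABALON stood at 37.3, 41.6 and 39.2 FPKM with DMSO, and with YM155 at 110.2, 108 and 96.3 FPKM. It rose 2.66-fold (log2 fold change 1.39, SE 0.06, adjusted p = 6.6e-08 by limma), in every YM155 library above every DMSO library. Its ratio to BCL2L1 within a library was 0.486 ± 0.00682 with DMSO and 0.560 ± 0.0439 with YM155 (SD, n = 3). The kit keeps strand, but whether quantification used strand is not given in the sources used here, so reads of BCL2L1 and ABALON cannot be told apart.

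MCL1, the short-lived member that sequesters BAK and NOXA, was at 118, 94.7 and 115 FPKM in DMSO replicates 1 to 3 and at 139, 153 and 146 FPKM in YM155 replicates 1 to 3. DMSO replicate 2 lay well below the other DMSO libraries, yet the groups did not overlap. The means were 109 ± 12.6 and 146 ± 7.28 FPKM (SD, n = 3), a log2 fold change of 0.42 with an SE of 0.08 (adjusted p = 9.4e-04 by limma). This rise was smaller than that of BCL2L1 and stood above 66.6% of tested genes, 0.11 above the median of its abundance decile. Its call ended after upper-quartile scaling (log2 fold change 0.0750), sum scaling (0.101), quantile normalization (-0.0114) and cyclic loess (0.0700). Relative to the median of all genes these values were 0.36, 0.36, 0.07 and 0.09, against 0.40 as deposited. Without DMSO replicate 2 the log2 fold change was 0.32 and the call remained.

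**Figure D1:**
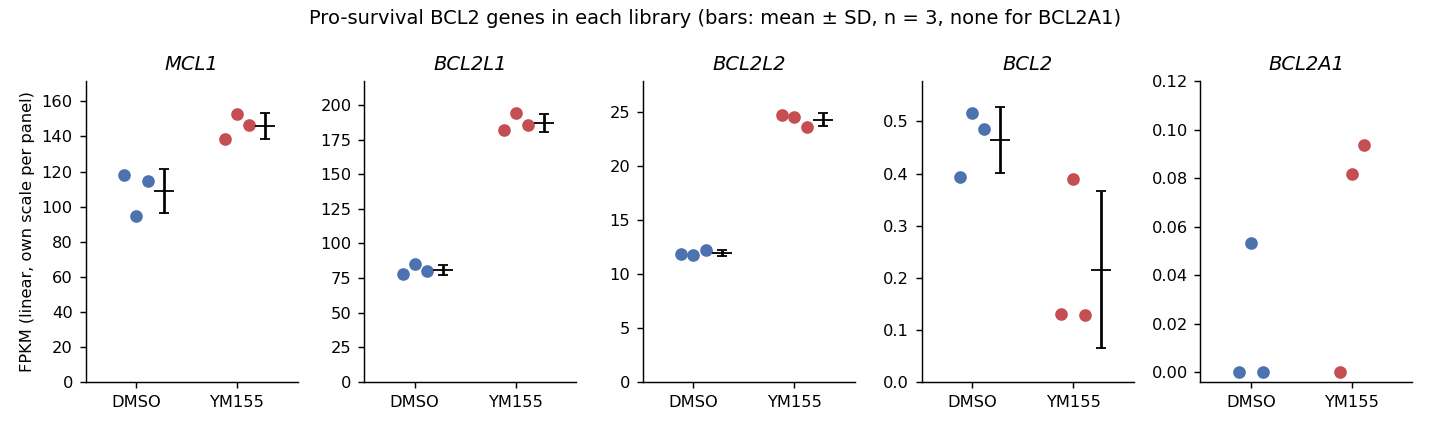
FPKM of each pro-survival gene (linear axis, own scale per panel) in the 3 DMSO (blue) and 3 YM155 (red) libraries, with mean ± SD beside the points except for BCL2A1. All YM155 points of BCL2L1 lie at 182 FPKM or above against at most 84.99 FPKM with DMSO, while BCL2 and BCL2A1 stay under 1 FPKM in every library.

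BCL2L2 encodes BCL-W, a relative of BCL-XL with known roles in sperm formation and in epithelial and neuronal survival. Its level was 11.8, 11.8 and 12.3 FPKM in DMSO replicates 1 to 3 and 24.8, 24.6 and 23.6 FPKM in YM155 replicates 1 to 3. The groups were far apart and each was tight. The mean doubled from 11.95 ± 0.269 to 24.3 ± 0.609 FPKM (SD, n = 3), a log2 fold change of 0.97 with an SE of 0.05 (2.03-fold, adjusted p = 1.3e-07 by limma), above 83.2% of tested genes. The call held under all 5 other scalings tried, the lowest log2 fold change being 0.64 after upper-quartile scaling.

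**Figure D2:**
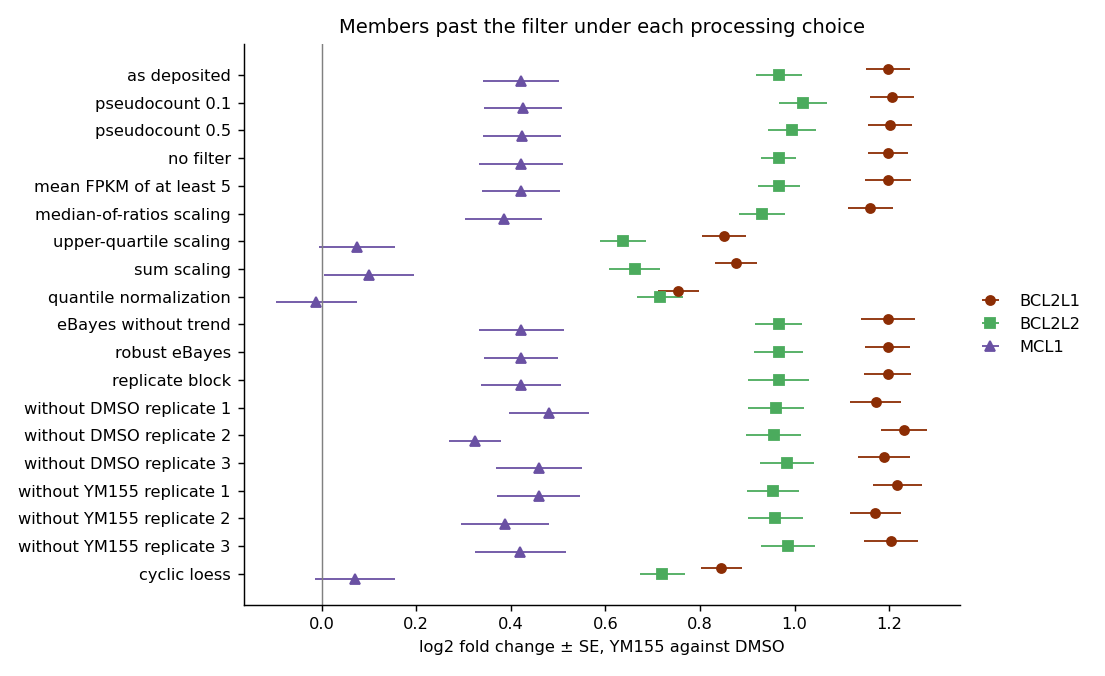
Log2 fold change ± SE of BCL2L1, BCL2L2 and MCL1 (YM155 against DMSO) as deposited and under each other processing choice except the sum with the read-through. BCL2L1 stays between 0.75 and 1.23 and BCL2L2 between 0.64 and 1.02, while MCL1 reaches -0.0114 after quantile normalization.

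The annotation also holds BCL2L2-PABPN1, a read-through transcript that joins BCL2L2 to the neighbouring PABPN1, a nuclear poly(A)-binding protein gene. In GENCODE release 29 it shares 813 of the 4189 exonic bases of BCL2L2 (19.4%) and 432 of the 702 coding bases annotated for BCL2L2. The read-through stood at 45.6, 48.9 and 50.4 FPKM with DMSO, and with YM155 at 34.2, 35.0 and 34.1 FPKM. It was above BCL2L2 in all 6 libraries. It fell with YM155 in every library (log2 fold change -0.48, SE 0.05, adjusted p = 1.4e-05 by limma), under every scaling tried. PABPN1 itself fell from 14.1 ± 0.557 to 11.4 ± 1.27 FPKM (SD, n = 3; adjusted p = 0.0085 by limma).

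Summed within each library, BCL2L2 and BCL2L2-PABPN1 came to 57.5, 60.7 and 62.6 FPKM with DMSO and to 58.97, 59.5 and 57.7 FPKM with YM155. The groups overlapped, and the sum gave a log2 fold change of -0.04 (SE 0.05, adjusted p = 0.48 by limma), in a fit added after seeing the data. The BCL2L2 row held 19.9% ± 0.665 of the sum with DMSO and 41.4% ± 0.549 with YM155 (SD, n = 3), without overlap. The groups thus differed in how the summed level was divided between these rows. Whether transcripts or only the assignment of shared reads differed was not tested. PPP1R3E overlaps 4.92% of BCL2L2 exonic bases on the other strand and was at 1.41 FPKM or less.

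**Figure D3:**
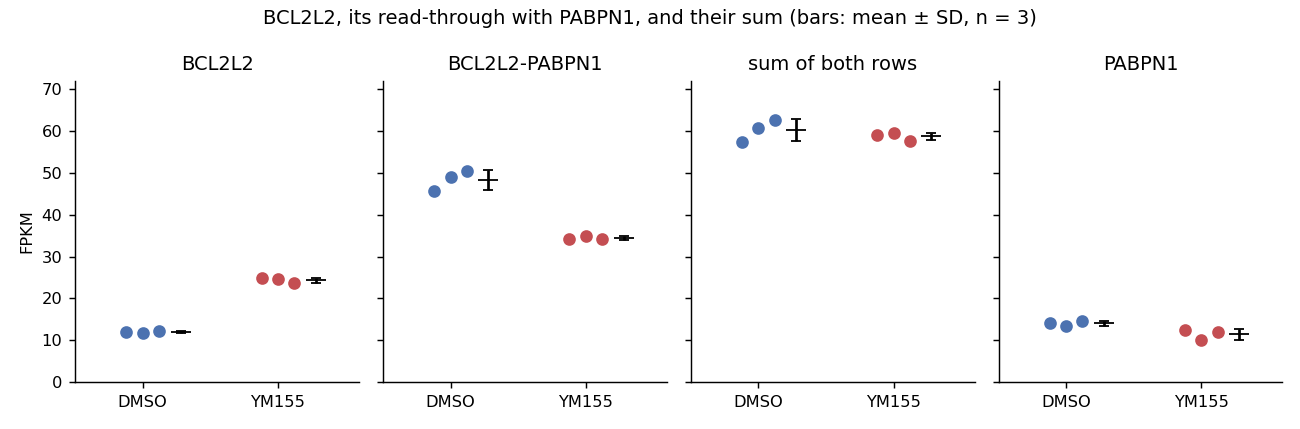
FPKM of BCL2L2, of its read-through with PABPN1, of the sum of both rows and of PABPN1 in the DMSO (blue) and YM155 (red) libraries, on a shared linear axis with mean ± SD (n = 3). The BCL2L2 points double and the read-through points fall, while the summed points of both groups lie between 57.5 and 62.6 FPKM.

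BCL2, the founding member and the target of venetoclax, was at 0.394, 0.516 and 0.485 FPKM in DMSO replicates 1 to 3 and at 0.130, 0.389 and 0.128 FPKM in YM155 replicates 1 to 3. All YM155 values lay below all DMSO values, but YM155 replicate 2 nearly reached DMSO replicate 1. Such a separation held for 41.5% of tested genes, and its share among genes under 1 FPKM was not computed. Since no library reached 1 FPKM, BCL2 was outside the genes tested. Fitted without a filter over 19085 genes, of which 32.8% fell, it had a log2 fold change of -0.28 (SE 0.09, adjusted p = 0.035 by limma). That value was -0.45 with a pseudocount of 0.5 and -0.93 with 0.1. Whether a lower read depth of the YM155 libraries, if there was one, bears on it was not tested.

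BCL2A1 encodes BFL-1, an NF-kB-induced survival factor of leukocytes and melanoma cells. With DMSO the listed values were 0, 0.0533 and 0 FPKM, and with YM155 0, 0.0815 and 0.0936 FPKM. With 3 of 6 libraries at 0 and overlapping groups, no difference was detectable at this depth, and the fit without a filter gave an adjusted p of 0.295 by limma. The 38.8% G and C window shown above thus belongs to a gene with almost no transcript in either group.

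The make-up of the family within a library is not changed by scaling each library with a single factor. MCL1 made up 53.7% ± 3.89 of the summed FPKM of the 5 members with DMSO and 40.8% ± 0.582 with YM155 (SD, n = 3). BCL2L1 went the other way, from 40.1% ± 3.63 to 52.3% ± 0.295. The part of ABALON reads in the BCL2L1 level, and so in these shares, was not tested. BCL2L2 held 5.91% ± 0.220 and 6.81% ± 0.321, and BCL2 and BCL2A1 together held under 1% in every library. MCL1, BCL2L1, BCL2L2 and BCL2 shares did not overlap between groups (exact permutation p = 0.1 each, adjusted p = 0.125 over the 5 members, two-sided), and 0.1 is the smallest p that 3 against 3 allows. How often such shares within other gene sets do not overlap was not computed. With the read-through counted as BCL2L2, the BCL2L2 share was 24.03% ± 1.30 with DMSO and 14.99% ± 0.485 with YM155, so its direction turned. The MCL1 share was then 43.4% ± 3.70 and 37.2% ± 0.612, a difference of -6.19 percentage points in place of -12.9.

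In the listed levels the order of the leading members was exchanged. Reads of BCL2L1 cannot be told apart from those of ABALON, so this holds for the listed levels only. The ratio of MCL1 to BCL2L1 was 1.51, 1.11 and 1.43 in DMSO replicates 1 to 3 and 0.762, 0.789 and 0.789 in YM155 replicates 1 to 3. MCL1 was thus above BCL2L1 in every DMSO library and below it in every YM155 library, though narrowly in DMSO replicate 2. On a log2 scale the ratio fell by 0.78 (exact permutation p = 0.1, adjusted p = 0.1 over 3 pairs, two-sided), and by 0.70 to 0.92 with 1 library left out. MCL1 to BCL2L2 differed by -0.60 and BCL2L1 to BCL2L2 by 0.18 in log2, also without overlap and with the same p. With the read-through counted as BCL2L2 the former turned to 0.46 and the latter became 1.24. How often ratios of other gene pairs differ without overlap was not computed. The summed FPKM of all 5 members was 203 ± 9.18 with DMSO and 358 ± 13.6 with YM155 (SD, n = 3).

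BH3-only genes, the antagonists of the members, moved in both directions: of 7 tested, 3 rose and 4 fell, against 43.6% and 41.0% of all tested genes, and HRK, at most 0.113 FPKM, was not tested. PMAIP1, encoding NOXA, a selective ligand of MCL1, held 4.38, 3.88 and 4.76 FPKM with DMSO, and 27.2, 34.9 and 29.1 FPKM once YM155 was given, a 7.01-fold rise. BBC3, encoding PUMA, which binds every pro-survival member, rose 5.58-fold, and BCL2L11, encoding BIM, another broad binder, rose 1.83-fold. BMF, whose product answers loss of cell attachment, fell 6.34-fold, BIK, which acts from the endoplasmic reticulum, 2.89-fold, BAD 1.63-fold and BID 1.20-fold. BAD is a ligand of BCL2, BCL-XL and BCL-W but not of MCL1, and BID is the link from death receptors. Of the pore-forming genes, BAK1 rose 1.92-fold. BAX was 1.17-fold higher (adjusted p = 0.0039 by limma), but its log2 fold change of 0.23 was below 0 after upper-quartile, sum and quantile scaling and cyclic loess. BAX was called lower after quantile normalization (-0.20) and cyclic loess (-0.12). BOK was at 14.4 ± 1.27 and 14.6 ± 1.82 FPKM (SD, n = 3) and was not called as deposited, but it was called lower after upper-quartile (-0.31) and sum scaling (-0.28).

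Each of 7 ratios of a partner to the member it binds differed between the groups without overlap (exact permutation p = 0.1, adjusted p = 0.1 over 7 pairs, two-sided). Of single tested genes 44.4% were higher and 41.5% lower without overlap. No such share was computed for ratios of other gene pairs, so the count is not read as particular to these pairs. PMAIP1 to MCL1 was 0.0398 ± 0.00241 with DMSO and 0.208 ± 0.0178 with YM155 (SD, n = 3), the widest difference of the 7 at 2.38 in log2. BBC3 to BCL2L1 was 0.163 ± 0.0282 and 0.393 ± 0.0377. BAD to BCL2L1 went the other way, from 0.344 ± 0.0338 to 0.0913 ± 0.00687, and BAX to BCL2L1 from 1.28 ± 0.0484 to 0.651 ± 0.0272. BAK1, which both members restrain, was higher relative to MCL1 (log2 difference 0.52) and lower relative to BCL2L1 (-0.27), and BCL2L11 to MCL1 was 0.44 higher. These are ratios of messenger RNA levels and say nothing of protein complexes.

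**Figure D4:**
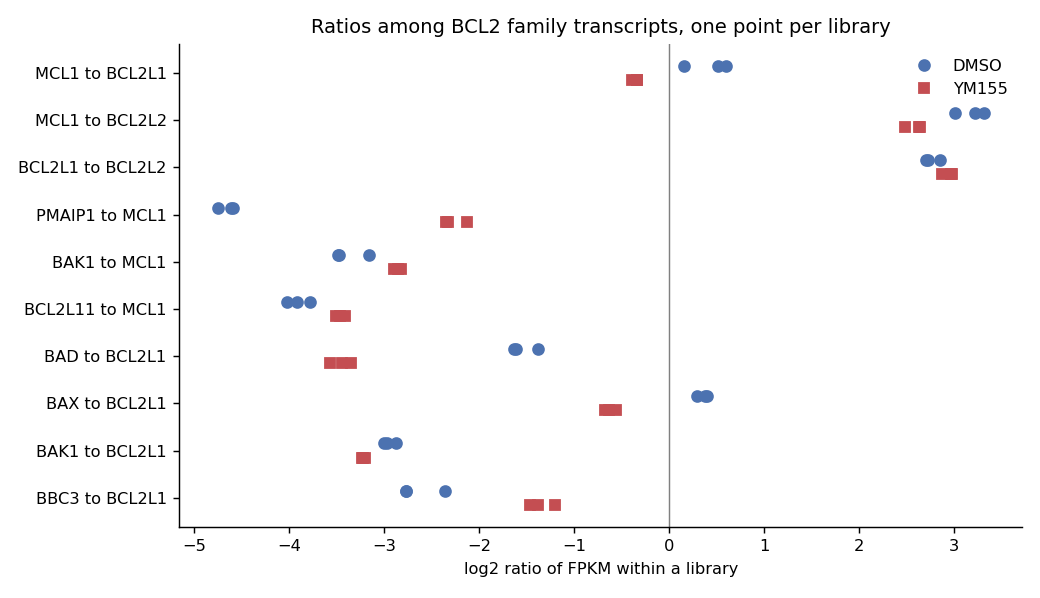
Log2 ratio of FPKM within each library for the 3 pairs of members and the 7 pairs of a binding partner and a member, with DMSO libraries as blue circles and YM155 libraries as red squares. The MCL1 to BCL2L1 points lie right of 0 with DMSO and left of 0 with YM155, and PMAIP1 to MCL1 shifts by 2.38.

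Less typical relatives were divided too, with 4 of 7 tested genes higher and 2 lower, against 43.6% and 41.0% of all tested genes. BNIP1 (1.98-fold) and BNIP2 (1.91-fold) rose, and BCL2L14 fell 2.96-fold. BCL2L15 fell 3.20-fold, having passed the filter through the DMSO libraries alone, and it missed the filter without any 1 of them. BCL2L13 and BCL2L12 were 1.23-fold and 1.17-fold higher, with log2 fold changes that turned below 0 after upper-quartile and sum scaling and, for BCL2L12, quantile normalization and cyclic loess. The mitophagy receptor gene BNIP3L was not called as deposited (20.9 ± 2.01 and 18.5 ± 1.93 FPKM, SD, n = 3), but it was called lower under 4 of the 5 other scalings, with a log2 fold change of -0.50 after upper-quartile scaling. BCL2L10 and BNIP3 stayed under 1 FPKM.

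MCL1 protein is controlled mostly by its turnover, so genes of its ubiquitin ligases and deubiquitinases were examined. Of 6 tested, 4 rose and 1 fell, against 43.6% and 41.0% of all tested genes. Their median log2 fold change was 0.92 against 0.02 over all genes. FBXW7, a substrate receptor that marks MCL1 for destruction, rose 4.70-fold, with means of 7.23 ± 0.724 and 33.9 ± 1.44 FPKM (SD, n = 3). The ligase genes HUWE1 (MULE) and MARCH5 rose 1.91-fold and 2.00-fold. USP9X, which removes ubiquitin from MCL1, rose 2.35-fold, whereas USP13, another such enzyme, fell 3.61-fold to 0.634 ± 0.0861 FPKM (SD, n = 3). BTRC was not called as deposited (3.70 ± 0.187 and 3.56 ± 0.343 FPKM, SD, n = 3), and its call and sign varied with the scaling, from -0.32 after upper-quartile scaling to 0.20 after cyclic loess, and TRIM17 was at most 0.264 FPKM. Genes that rose thus included ligases as well as a deubiquitinase. USP13 passed the filter through the DMSO libraries alone. Without any 1 of them it missed the filter, and 0 genes of the list fell.

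Among 16 tested transcription factors known to act on the members, 14 rose and 1 fell, with a median log2 fold change of 1.24. Over all tested genes 43.6% rose and 41.0% fell, and the median was 0.02. SRF rose 7.43-fold, and ELK1 and ELK4, its partners at the MCL1 promoter, rose 2.25-fold and 3.63-fold. ETS1 rose 6.44-fold. RELA, the NF-kB subunit known for inducing BCL2L1 and BCL2A1, went from 30.6 ± 1.14 to 107 ± 4.89 FPKM (SD, n = 3; 3.51-fold), and RELB rose 3.58-fold. STAT3, a known inducer of BCL2L1 and MCL1, rose 2.67-fold. ETS2 fell 1.55-fold, from 157 ± 1.11 to 101 ± 7.02 FPKM. STAT5B was at 8.05 ± 0.116 and 7.53 ± 0.489 FPKM (SD, n = 3) and was not called as deposited, but it was called lower after upper-quartile scaling (-0.40), sum scaling (-0.37) and quantile normalization (-0.15). The other NF-kB subunit genes, NFKB1, NFKB2 and REL, rose 1.53-fold, 2.77-fold and 2.64-fold.

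The choice between BCL-XL and BCL-XS is made in splicing. Of 15 tested genes of factors that act on it, 7 rose and 6 fell, with a median log2 fold change of 0.01. That split was close to the one over all tested genes, of which 43.6% rose and 41.0% fell. PTBP1 rose 2.12-fold, KHDRBS1 (SAM68) 1.57-fold and HNRNPF 1.49-fold, the last call ending with quantile normalization. HNRNPH1 fell 1.55-fold. SRSF3 was not called as deposited (97.6 ± 6.04 and 98.3 ± 7.62 FPKM, SD, n = 3), but it was called lower under 4 of the 5 other scalings, with a log2 fold change of -0.34 after upper-quartile scaling. After upper-quartile scaling 4 rose and 11 fell, where 3767 of all 12035 tested genes rose and 6584 fell. The balance of this list thus depended on the scaling, as did that of all tested genes. Which BCL2L1 isoform these libraries held cannot be read from gene-level values.

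Of 10 genes of membrane and autophagy partners 7 rose and 3 fell, all 10 being called where 84.7% of all tested genes were. After upper-quartile scaling 4 rose and 4 fell, where 3767 of all 12035 tested genes rose and 6584 fell. The channel gene VDAC2, whose product holds BAK at mitochondria, rose 2.21-fold, and VDAC3 fell 1.68-fold. Of the inositol trisphosphate receptors, through which BCL2 proteins affect calcium release, ITPR3 rose 5.11-fold, from 26.3 ± 0.767 to 134 ± 2.58 FPKM (SD, n = 3), while ITPR2 fell 5.16-fold. ITPR1, which passed the filter through the YM155 libraries alone, was 4.39-fold higher, with 0.328 ± 0.0513 and 1.44 ± 0.159 FPKM (SD, n = 3). BECN1, the autophagy gene whose BH3 helix BCL2 and BCL-XL bind, fell 1.13-fold. VDAC1, TMBIM6 and PGAM5 were 1.10-fold, 1.22-fold and 1.27-fold higher, with a sign that turned under at least 1 other scaling, upper-quartile among them. VDAC1 was called lower after upper-quartile (-0.21), sum and quantile scaling and cyclic loess, and TMBIM6 after quantile normalization (-0.20).

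**Figure D5:**
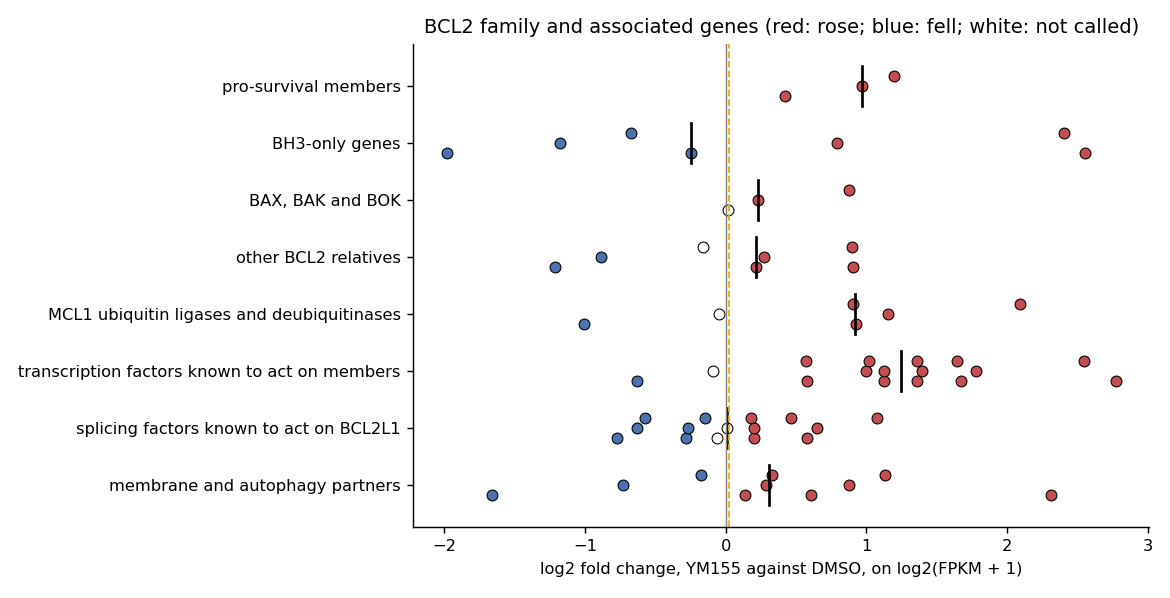
Log2 fold change (YM155 against DMSO, on log2(FPKM + 1)) of each tested gene by list, with red for genes that rose, blue for genes that fell and white for genes not called by limma at an adjusted p under 0.05. Black bars are list medians and the dashed line is the median of all tested genes, 0.02, against which transcription factors have a median of 1.24 and BH3-only genes of -0.25.

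The genes whose pattern over the 6 libraries was nearest to each member were found by the root mean square difference of log2(FPKM + 1) profiles, centred on the DMSO mean, among 8553 genes with a mean of at least 5 FPKM. For BCL2L1 they were ABCF2 (0.0211), DUSP16 (0.0237) and TBC1D25 (0.0267), for BCL2L2 ASCC2 (0.0236), UTP15 (0.0280) and FBXO7 (0.0285), and for MCL1 MZT1 (0.0273), RAB2A (0.0297) and C5orf30 (0.0425). The nearest gene to MCL1, MZT1, went from 10.2 ± 1.28 to 13.8 ± 1.14 FPKM (SD, n = 3).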

How the data were processed

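The authors deposited, per the file headers, 1 table per library with FPKM values for 26255 genes. Software named in the submitters' processing notes is TopHat2 2.1.1, aligning with Bowtie2 2.3.5.1, then SAMtools 1.2, and for quantification Cufflinks 2.2.1 with Cuffdiff, on build hg19. Settings, annotation, use of strand and read totals are not given there. Groups came from the treatment labels.

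The genes tested reached 1 FPKM in 3 or more libraries. They were compared as log2(FPKM + 1) with limma 3.58.1 in R 4.3.3 (lmFit, eBayes with trend, two-sided, Benjamini-Hochberg over all tested genes, threshold 0.05). That fit was also run on simulated data with few changed genes and no shift in scale between groups. Because these data differ in both respects, that run says nothing of the choice of scaling. Shares and ratios were compared by exact permutation over libraries (scipy 1.17.1). The members, gene lists and tests were chosen with earlier results of these data known. The genes named were all members, all tested genes of lists of up to 9, the 4 called genes with the lowest p and the most abundant uncalled gene of longer lists, and 3 genes nearest to each tested member. Any other gene was named after its values were seen. Alternatives covered pseudocount, filter, scaling, variance model, threshold, a replicate block and leaving out each library. Exon overlaps came from GENCODE release 29 (GRCh38), without coordinates, since the files use hg19.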

Additional observations from a re-analysis of the deposited data

How the results depend on the processing

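BCL2L1 kept its direction and call in every alternative run, and BCL2L2 in every one but the sum with its read-through. In that sum the BCL2L2 log2 fold change was -0.0355, its share of the family differed by -9.04 percentage points and the log2 ratio of MCL1 to BCL2L2 by 0.46. MCL1 lost its call after upper-quartile scaling (0.0750), sum scaling (0.101), cyclic loess (0.0700) and quantile normalization (-0.0114), and the cause was not tested. Leaving out 1 library gave log2 fold changes of 1.17 to 1.23 for BCL2L1, 0.95 to 0.99 for BCL2L2, 0.32 to 0.48 for MCL1, -0.38 to -0.22 for BCL2 and 0.03 to 0.10 for BCL2A1. The log2 difference of BCL2 was -0.93 and -0.45 with pseudocounts of 0.1 and 0.5, and that of BCL2A1 was 0.40 with 0.1. Cyclic loess and the sum with the read-through were added after seeing the data. For BCL2 and BCL2A1 the unknown read depth limits what can be said.

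With a mean FPKM of at least 5 required, 2922 genes fell, among them 2 BH3-only genes, 0 other relatives and 0 MCL1 turnover genes, as fewer genes were tested. After upper-quartile, sum and quantile scaling and cyclic loess, 1 of BAX, BAK1 and BOK rose and 1 fell. The gene that fell was BOK after upper-quartile and sum scaling, and BAX after quantile normalization and cyclic loess. After upper-quartile, sum and quantile scaling 2 other relatives rose and 2 transcription factors fell, and after the former pair 2 turnover genes fell. Of the splicing factors 4 rose after upper-quartile scaling, sum scaling and cyclic loess and 2 after quantile normalization, while 11 fell after upper-quartile and quantile scaling and 10 after sum scaling. Of the partners 4 rose after each of these scalings and cyclic loess, and 5 fell after quantile normalization. Over all tested genes 3767 rose and 6584 fell after upper-quartile scaling, and 3830 and 6422 after sum scaling. These counts were 4643 and 5487 after quantile normalization, and 4913 and 5077 after cyclic loess. With 1 library left out, 1 to 3 other relatives and 0 to 1 turnover genes fell.

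Deviations of same-numbered libraries correlated at -0.07, -0.15 and -0.12, and those of differently numbered libraries at -0.003 to 0.12. These values cannot show whether the samples were paired by design, which is not stated. With the replicate block 5147 genes rose and 4861 fell, and the log2 fold changes of BCL2L1, BCL2L2 and MCL1 stayed at 1.20, 0.97 and 0.42, each still called.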
